A study of Mus musculus with 25 samples.

Results

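The peroxisomal β-oxidation enzymes are described here through 9 transcripts, Ehhadh, Acox2, Acox3, Hsd17b4, Acaa1a, Acaa1b, Decr2, Pecr and Ech1. They were taken by gene symbol from a table of 36333 genes, and all 9 were present. No measured value entered the rule, but the enzymes were chosen with earlier results of these data known. All 9 passed the filter on low counts in every comparison. On GRCm38.p6 the genes lie on chromosome 1 (Pecr, gene ID 111175, chr1:72259172-72284314), chromosome 5 (Acox3, 80911, chr5:35582964-35614208), chromosome 7 (Ech1, 51798, chr7:28825338-28832239), chromosome 9 (Acaa1b, 235674, chr9:119148043-119157093, and Acaa1a, 113868, chr9:119341052-119350296), chromosome 14 (Acox2, 93732, chr14:8225511-8259019), chromosome 16 (Ehhadh, 74147, chr16:21761285-21787834), chromosome 17 (Decr2, 26378, chr17:26081211-26090164) and chromosome 18 (Hsd17b4, 15488).

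Peroxisomal β-oxidation shortens fatty acids that mitochondria handle poorly, among them very long-chain, branched-chain and dicarboxylic acids and the side chain of bile acid precursors. An acyl-CoA oxidase opens each round and passes electrons to oxygen, which yields hydrogen peroxide. A bifunctional protein then hydrates and dehydrogenates the product, and a thiolase releases acetyl-CoA and a shortened acyl-CoA. Auxiliary reductases and isomerases bring unsaturated acids into this cycle. In rodent liver many of these genes are classical targets of the nuclear receptor PPARα. Dodecanedioic acid (DDDA) is a medium-chain dicarboxylic acid, and Ehhadh, the L-bifunctional protein, takes part in the breakdown of such acids.

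The transcripts were measured by RNA-Seq in 4 groups of 5 FVB mice. Hepatoblastomas (HBs) from mice on the 10% DDDA diet (4 females, 1 male) and HBs from mice on the standard diet (2 females, 3 males) were compared with livers from uninjected mice on the 10% DDDA diet (2 females, 3 males) and on the standard diet (3 females, 2 males). All HBs had been induced by tail vein injection of Sleeping Beauty vectors for a β-catenin deletion mutant (Del90 in the labels, Δ(90) in the study) and for YAP S127A, an active form of the Hippo pathway effector, and the labels also list xloc, which they do not explain. The labels give the DDDA diet as 3-4 weeks and no age at sampling. Each HB arises from vector-transduced liver cells of an otherwise normal animal, and pieces of healthy appearance were taken, so a sample can hold vessels, stroma and blood cells besides tumor cells. Each library carries a label of its own and is taken here as 1 animal.

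Depth was 16548771 to 29783324 counts per library. Levels are given as CPM, a gene's counts scaled to a common library total with TMM factors over the 20 libraries, a scale that allows one gene to be compared between libraries but not one gene with another. TMM factors were 1.09 to 1.41 in HBs and 0.698 to 0.887 in livers, and the 10 most abundant genes took 11.6% to 14.7% of counts in HBs and 16.3% to 24.2% in livers. The summed level of 9 hepatocyte markers was 26169 to 57094 CPM in HBs and 87172 to 148513 CPM in livers, and that of 6 cholangiocyte markers was 110 to 1596 CPM in HBs and 25.8 to 41.2 CPM in livers. DT2264, a DDDA HB, stood apart with 2948 CPM of stellate and fibroblast markers, against 61.0 to 655 CPM over the other HBs. In bulk tissue, fewer cells of a type and less RNA per cell cannot be told apart. Standard diet libraries came from 1 flow cell and DDDA libraries from 2 others, so diet and flow cell cannot be told apart, and no lane held both HBs and livers.

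All 9 transcripts were lower in HBs than in livers, on either diet. On the standard diet the falls ran from 1.54-fold for Acox3 to 8.02-fold for Pecr, with a median log2 fold change of -1.64 over the 9 and of 0.02 over all 13830 genes tested. The test was edgeR's quasi-likelihood test with Benjamini-Hochberg adjustment and a threshold of 0.05. It called 26.8% of all genes lower, and the HBs lay wholly below the livers for 20.3% of all genes and for 9 of the 9 enzymes. Among DDDA-fed mice 9 of 9 were again called lower, against 23.4% of the 13415 genes tested, and 8 of 9 did not overlap, against 19.5% of all genes. The median log2 fold change there was -1.70 over the 9 and 0.08 over all genes. The hepatocyte and cholangiocyte marker sums given above moved with this comparison. On the standard diet so did the sums of 6 stellate and fibroblast markers (247 to 655 CPM in HBs, 152 to 233 CPM in livers) and of 6 endothelial markers (75.4 to 156 CPM in HBs, 199 to 280 CPM in livers), while both overlapped on the DDDA diet. Single markers were less uniform. Of 9 hepatocyte markers, 6 were called lower on the standard diet and 3 on the DDDA diet, and none higher. All 6 cholangiocyte markers were called higher on each diet. On the standard diet 5 stellate and fibroblast markers were higher and 1 lower, and 1 endothelial marker was higher and 2 lower. The part of these cell types in the result was not tested.

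**Figure D1:**
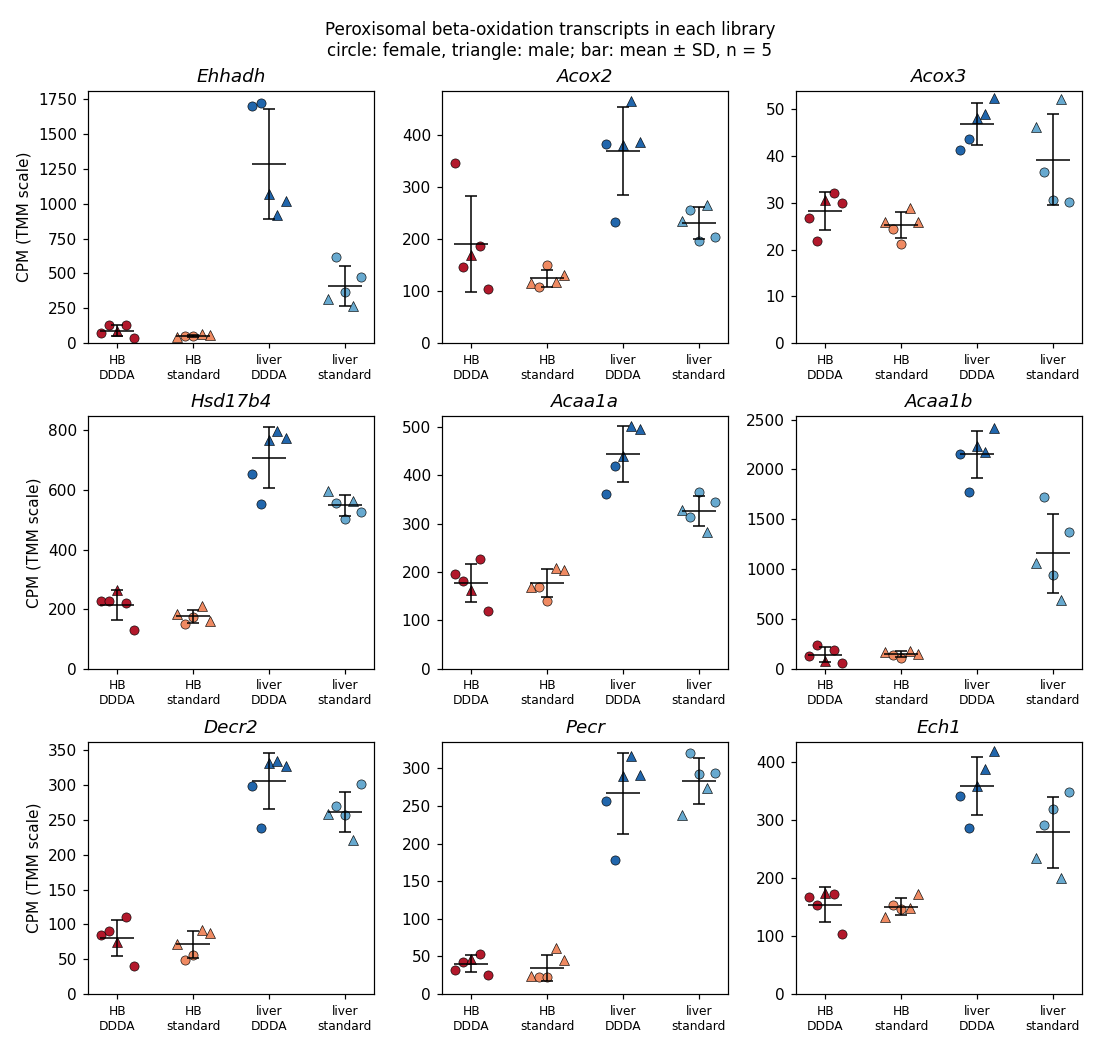
CPM of the 9 transcripts (vertical axes, linear, TMM scale) in each of 20 libraries, by group; circles are females, triangles males, and bars give the mean and SD of 5. HBs lie below the livers of the same diet in every panel, apart from 1 DDDA HB for Acox2, and the DDDA livers lie above the standard diet livers without overlap for Ehhadh and Acaa1b.

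The bifunctional proteins act on the same step through opposite stereochemistry, and Ehhadh fell further than Hsd17b4. Ehhadh had 45.0, 49.0, 49.4, 62.7 and 56.4 CPM in standard diet HBs, against 315, 268, 475, 621 and 367 CPM in standard diet livers. Every HB was below every liver, and the livers spread over more than the HBs did. Its log2 fold change was -2.95 (SE 0.23, adjusted p = 2.21e-06, edgeR), a 7.75-fold fall. With DDDA feeding it had 35.8, 72.6, 88.2, 127 and 128 CPM in HBs, against 920, 1018, 1070, 1701 and 1725 CPM in livers, a 13.9-fold fall (log2 fold change -3.80, SE 0.39, adjusted p = 5.63e-05, edgeR). The lowest of these HBs was DT2264, the library rich in stromal markers, and the highest livers were the 2 females. Without any 1 library the log2 fold change stayed between -3.97 and -3.60.

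Hsd17b4, the D-bifunctional protein, which also serves very long-chain acids and bile acid precursors, had 150 to 209 CPM in standard diet HBs (mean 175 ± 22.8, SD, n = 5) and 502 to 595 CPM in standard diet livers (mean 548 ± 35.9, SD, n = 5). The groups were far apart relative to their spread, and the log2 fold change was -1.64 (SE 0.13, adjusted p = 2.08e-06, edgeR). With DDDA feeding it had 130 to 265 CPM in HBs and 552 to 797 CPM in livers, with a log2 fold change of -1.70 (adjusted p = 0.000112, edgeR).

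A ratio of the 2 within a library does not depend on how libraries are scaled. The count ratio of Ehhadh to Hsd17b4 was 0.243 to 0.353 in standard diet HBs, against 0.476 to 1.12 in standard diet livers. In DDDA-fed mice it was 0.275 to 0.586 in HBs, against 1.15 to 3.13 in livers. Neither pair of groups overlapped, and the mean log2 ratio differed by -1.26 on the standard diet and by -2.16 on the DDDA diet. Each gave p = 0.00794 by an exact two-sided permutation test, the smallest that 5 against 5 allows, and 0.0127 after adjustment over 8 tests. These values describe unequal falls of a pair whose fold changes on the standard diet were known when the ratio was chosen.

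The region before the start of Ehhadh is shown because this gene moved with tissue, diet and sex. It is the RefSeq window on GRCm38.p6 from 250 bases before to 50 bases after the start, chr16:21787785-21788084, minus strand, with matches to 2 common motifs in capitals, CCAAT (reverse ATTGG) and the GC box GGGCGG (reverse CCGCCC).
Ehhadh: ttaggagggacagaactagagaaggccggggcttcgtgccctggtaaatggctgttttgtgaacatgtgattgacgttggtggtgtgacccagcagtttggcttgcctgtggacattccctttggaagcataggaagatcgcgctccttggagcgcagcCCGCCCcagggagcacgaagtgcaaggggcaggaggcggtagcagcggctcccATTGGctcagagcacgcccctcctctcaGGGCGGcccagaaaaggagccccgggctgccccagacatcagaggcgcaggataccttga

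On either strand, CCAAT occurred in 37.4% and GGGCGG in 35.7% of 32851 RefSeq windows of this length. AGGTCA, the core site that PPARα and other nuclear receptors read, occurred in 16.3% of them. Its direct repeat with 1 base between and 1 letter left free in each copy occurred in 0.381%, and TATAAA in 13.6%. Windows were found for 8 of the 9 genes. AGGTCA, the repeat and TATAAA were not in these letters for any of the 8. GC content was 60.7% for Ehhadh, with a median of 52.7% over all windows.

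The thiolases carry out the last step, and mice have a near-identical pair of genes for it. Acaa1b, thiolase B, had 106, 141, 145, 168 and 176 CPM in standard diet HBs, against 689, 937, 1056, 1375 and 1721 CPM in standard diet livers. Acaa1a, thiolase A, had 140, 168, 169, 205 and 209 CPM in standard diet HBs, against 283, 315, 328, 345 and 365 CPM in standard diet livers. Both were lower in every HB than in any liver, by 7.80-fold for Acaa1b (log2 fold change -2.96, SE 0.26, adjusted p = 4.33e-06, edgeR) and by 1.83-fold for Acaa1a (-0.87, SE 0.14, adjusted p = 0.000292, edgeR). In DDDA-fed mice Acaa1b had 57.7, 77.0, 127, 191 and 238 CPM in HBs, against 1772, 2150, 2178, 2239 and 2414 CPM in livers. That 15.1-fold fall was the largest among the 9 on this diet, at -3.92 on the log2 scale (SE 0.41, adjusted p = 6.02e-05, edgeR). Acaa1a averaged 177 ± 39.7 CPM in DDDA HBs and 444 ± 58.5 CPM in DDDA livers (SD, n = 5 each), a 2.45-fold fall (adjusted p = 0.00035, edgeR).

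The ratio of Acaa1b to Acaa1a, per length by the deposited RPKM (reads per length of transcript and depth), was 0.488 to 0.691 in standard diet HBs and 1.68 to 3.77 in standard diet livers. It was 0.327 to 0.904 in DDDA HBs and 2.91 to 4.11 in DDDA livers. Acaa1b was below Acaa1a in every HB and above it in every liver. The mean log2 ratio of counts differed by -2.04 and -2.80 on the standard and DDDA diets, each with p = 0.00794 by the exact permutation test (adjusted 0.0127). How reads that match both copies were shared is not given in the sources used here, so the levels of each copy are uncertain.

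**Figure D2:**
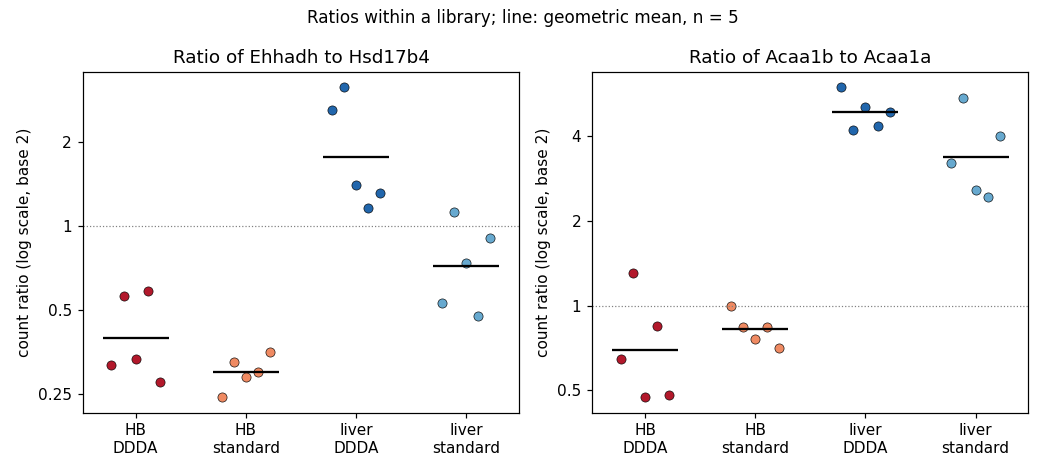
Count ratios within each library (vertical axes, log scale) of Ehhadh to Hsd17b4 (left) and of Acaa1b to Acaa1a (right), 5 libraries a group, lines at the geometric mean. HBs lie below the livers of the same diet without overlap in both panels, and the DDDA livers lie above the standard diet livers without overlap for Ehhadh to Hsd17b4 only.

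The likeness of the pair limits what short reads can tell apart, so the start of each coding sequence is shown, from the transcripts Acaa1a-201 and Acaa1b-201 of the GENCODE annotation, with the bases that differ in capitals.
Acaa1a: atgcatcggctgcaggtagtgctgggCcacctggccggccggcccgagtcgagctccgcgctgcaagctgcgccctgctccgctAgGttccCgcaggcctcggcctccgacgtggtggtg
Acaa1b: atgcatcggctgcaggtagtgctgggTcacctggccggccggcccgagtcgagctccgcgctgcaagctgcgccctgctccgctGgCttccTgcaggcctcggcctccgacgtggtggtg

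These 120 bases differ at 4 positions. Over the whole coding length of 1272 bases in each, 96.5% of positions were identical and 44 differed. Of all stretches of 50 bases in the Acaa1b transcript, 35.5% also occurred in that of Acaa1a, and of stretches of 150 bases 13.3%. The windows around the starts are shown as well, with the same motifs in capitals, and their likeness to each other was not measured. They are chr9:119341044-119341343 on the plus strand for Acaa1a, whose start in RefSeq lies inside the annotated span of the gene, and chr9:119157044-119157343 on the minus strand for Acaa1b.
Acaa1a: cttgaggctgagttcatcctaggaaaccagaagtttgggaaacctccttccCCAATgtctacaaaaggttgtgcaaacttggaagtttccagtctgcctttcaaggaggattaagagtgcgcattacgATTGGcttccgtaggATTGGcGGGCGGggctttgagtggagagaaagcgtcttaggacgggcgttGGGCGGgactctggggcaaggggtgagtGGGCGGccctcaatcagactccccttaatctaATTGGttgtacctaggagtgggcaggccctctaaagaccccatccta
Acaa1b: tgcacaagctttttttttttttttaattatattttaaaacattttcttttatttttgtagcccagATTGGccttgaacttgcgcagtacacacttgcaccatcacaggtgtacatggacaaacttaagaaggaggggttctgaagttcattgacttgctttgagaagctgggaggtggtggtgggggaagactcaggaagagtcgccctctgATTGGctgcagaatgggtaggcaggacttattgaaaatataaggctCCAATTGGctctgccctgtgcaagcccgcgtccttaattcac

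GGGCGG occurred 3 times in the Acaa1a window and was not in these letters for Acaa1b. CCAAT occurred 4 times in each, and the last pair in Acaa1b overlap on opposite strands. GC content was 53.3% for Acaa1a and 43.7% for Acaa1b.

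Of the acyl-CoA oxidases that open the cycle, Acox3 fell least of the 9 on both diets. Acox2, which oxidizes branched-chain acyl-CoAs and bile acid intermediates, had 108, 115, 118, 132 and 150 CPM in standard diet HBs, against 197, 204, 236, 257 and 266 CPM in standard diet livers. The groups did not overlap, and the log2 fold change was -0.89 (SE 0.13, adjusted p = 0.000197, edgeR). With DDDA feeding it had 104, 146, 169, 188 and 347 CPM in HBs, against 233, 381, 383, 387 and 467 CPM in livers. The HB DT3167 lay above the lowest liver, DL02, and this was the one enzyme whose groups overlapped between HB and liver. The log2 fold change was -0.92 (SE 0.31, adjusted p = 0.03, edgeR), and the call was lost without DL04, DL05, DT3168, DT2270 or DT2277, without DL03 together with DT3168, with sex as a covariate and with scaling by library size alone (adjusted p 0.00237 to 0.404 over 17 alternatives, edgeR or DESeq2).

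Acox3, the pristanoyl-CoA oxidase, was the least abundant of the 9 per length. It had 21.1 to 28.9 CPM in standard diet HBs (mean 25.2 ± 2.85, SD, n = 5) and 30.2 to 52.1 CPM in standard diet livers (mean 39.2 ± 9.72, SD, n = 5). The highest HB and the lowest livers nearly met, and the log2 fold change was -0.63 (SE 0.16, adjusted p = 0.00661, edgeR). On the DDDA diet it had 21.9 to 32.0 CPM in HBs and 41.2 to 52.3 CPM in livers, with a log2 fold change of -0.70 (adjusted p = 0.000783, edgeR).

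The auxiliary enzymes were lower too, Pecr most. Pecr, a peroxisomal enoyl-CoA reductase, had 22.4, 23.0, 24.4, 45.4 and 60.7 CPM in standard diet HBs, against 237, 274, 292, 293 and 320 CPM in standard diet livers. The HBs fell into 3 low and 2 higher values, all far below the livers, at -3.00 on the log2 scale (SE 0.30, adjusted p = 9.75e-06, edgeR). On the DDDA diet it averaged 40.0 ± 11.3 CPM in HBs and 267 ± 53.5 CPM in livers (SD, n = 5 each), a 6.50-fold fall (adjusted p = 2.38e-05, edgeR).

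Decr2, the peroxisomal dienoyl-CoA reductase, averaged 71.4 ± 19.0 CPM in standard diet HBs and 262 ± 28.6 CPM in standard diet livers (SD, n = 5 each). The log2 fold change was -1.87 (SE 0.19, adjusted p = 1.07e-05, edgeR) and on the DDDA diet -1.89 (adjusted p = 0.00017, edgeR). Ech1, a dienoyl-CoA isomerase found in peroxisomes and mitochondria, averaged 151 ± 14.8 CPM in standard diet HBs and 279 ± 61.0 CPM in standard diet livers (SD, n = 5 each). It fell 1.84-fold on the standard diet (adjusted p = 0.000749) and 2.27-fold on the DDDA diet (adjusted p = 0.000321, both edgeR). Its level in DT2264 was 103 CPM, below the 154 to 174 CPM of the other DDDA HBs.

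**Figure D3:**
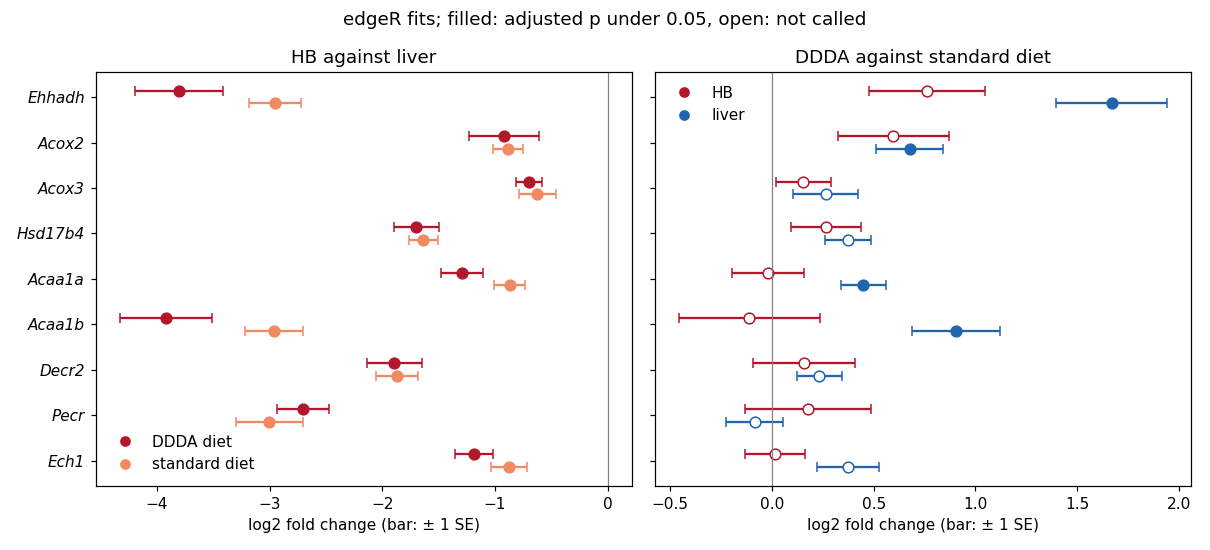
Log2 fold changes from edgeR with ±1 SE (horizontal axes) for each of the 9 transcripts, HB against liver on the left and DDDA against standard diet on the right; filled points passed an adjusted p of 0.05. All 18 points on the left are below 0 and filled, and on the right 4 liver points and no HB point are filled.

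How far the weaker falls can be read depends on the scaling. With scaling by library size alone, an alternative chosen after seeing the data, the median of all genes moved to 0.70 on the standard diet and 0.73 on the DDDA diet, and the calls on the standard diet were 3896 higher and 3703 lower with TMM and 8776 higher and 1299 lower without it. For DDDA the split was 3529 higher and 3144 lower with TMM and 7966 higher and 1152 lower without it. Ehhadh, Hsd17b4, Acaa1b, Decr2 and Pecr were still called lower on both diets. Acox2, Acaa1a and Ech1 were not called on the standard diet under this scaling, where Acox3 had a log2 fold change of 0.075, and Acox2 and Acox3 were not called on the DDDA diet. Relative to the median of all genes, the 9 transcripts lay at -0.63 (Acox3) to -3.07 (Pecr) on the standard diet and at -0.77 (Acox3) to -4.01 (Acaa1b) on the DDDA diet.

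**Figure D4:**
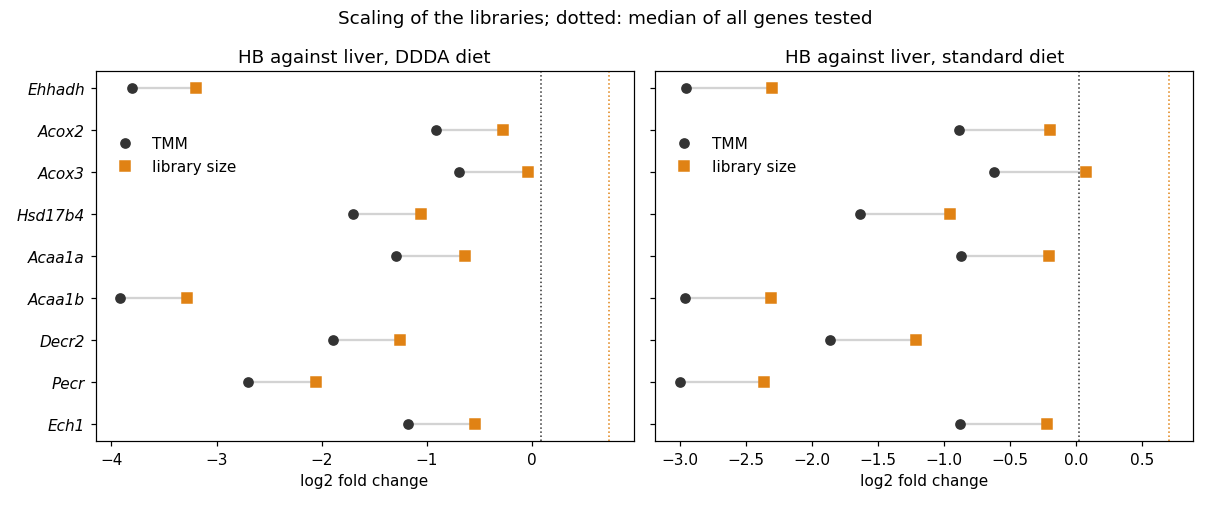
Log2 fold changes of HB against liver (horizontal axes) for the 9 transcripts under TMM scaling (circles) and under scaling by library size alone (squares), DDDA diet left, standard diet right; dotted lines give the median of all genes tested. Library size scaling moves every transcript toward 0 and moves Acox3 past 0 on the standard diet, and under each scaling all 9 lie left of the median for that scaling.

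In livers the DDDA diet went with higher levels of 4 of the 9 transcripts. Ehhadh rose most, by 3.18-fold, followed by Acaa1b (1.87-fold), Acox2 (1.60-fold) and Acaa1a (1.37-fold). Of all 12803 genes tested, 4.27% were called higher. The calls over all genes were 547 higher and 393 lower, and with scaling by library size alone 176 higher and 307 lower, with Ehhadh the one enzyme called. The DDDA livers lay wholly above the standard diet livers for Ehhadh and Acaa1b, and for 5.05% of all genes. The median log2 fold change was 0.38 over the 9 and 0.00 over all genes.

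Ehhadh had 920, 1018, 1070, 1701 and 1725 CPM in DDDA livers, against 268, 315, 367, 475 and 621 CPM in standard diet livers. The lowest DDDA liver was above the highest standard diet liver. The log2 fold change was 1.67 (SE 0.27, adjusted p = 0.00854, edgeR), and the call held under all 17 alternatives (adjusted p at most 0.0276). Acaa1b had 1772, 2150, 2178, 2239 and 2414 CPM in DDDA livers, against 689, 937, 1056, 1375 and 1721 CPM in standard diet livers, and here too no values overlapped (log2 fold change 0.90, SE 0.22, adjusted p = 0.0332, edgeR).

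The estimate for Acox2 was 0.68 on the log2 scale (SE 0.17, adjusted p = 0.0359) and that for Acaa1a 0.45 (SE 0.11, adjusted p = 0.0358, both edgeR), and both overlapped between the diets. The calls other than Ehhadh depended on single libraries. Without c1, c7, DL03, DL04 or DL05, and without DL03 together with DT3168, Ehhadh was the one enzyme called, and without c12, c17, c4 or DL01 there were 2. Without DL02, or with sex as a covariate, there were 5, with Hsd17b4 added. Calls over all genes moved too, from 328 to 858 with 1 library left out, against 547 higher and 393 lower with all.

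The estimate for Hsd17b4 was 0.38 on the log2 scale (SE 0.11, adjusted p = 0.0721), for Ech1 0.37 (adjusted p = 0.161), for Acox3 0.26 (adjusted p = 0.328) and for Decr2 0.23 (adjusted p = 0.223, all edgeR). Pecr, the enzyme that fell furthest in standard diet HBs, had 267 ± 53.5 CPM in DDDA livers and 283 ± 30.5 CPM in standard diet livers (SD, n = 5 each), with a log2 fold change of -0.08 and a 95% interval of -0.36 to 0.19. The count ratio of Ehhadh to Hsd17b4 was 1.15 to 3.13 in DDDA livers and 0.476 to 1.12 in standard diet livers, a difference of 1.31 in mean log2 ratio (exact permutation p = 0.00794, adjusted 0.0127). The ratio of Acaa1b to Acaa1a differed by 0.52 (exact permutation p = 0.0714, adjusted 0.0952).

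In HBs no transcript of the 9 was called between the diets, and 0.298% of the 14082 genes tested were. The calls over all genes were 14 higher and 28 lower, and with scaling by library size alone 15 higher and 94 lower. Before adjustment 1 of the 9, and 2299 of the 14082 genes, had a p under 0.05 with edgeR. DESeq2 called none of the 9, and over all genes 335 higher and 396 lower. Ehhadh had 35.8, 72.6, 88.2, 127 and 128 CPM in DDDA HBs, against 45.0, 49.0, 49.4, 56.4 and 62.7 CPM in standard diet HBs. Of the DDDA HBs, 4 of 5 lay above all standard diet HBs, and DT2264 lay below all of them. The log2 fold change was 0.76 (SE 0.29, 95% interval 0.20 to 1.32, adjusted p = 0.232, edgeR). Without DT2264 it was 0.96 with an adjusted p of 0.0483.

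For Acox2 the estimate in HBs was 0.60 on the log2 scale (SE 0.27, adjusted p = 0.312, edgeR), with the highest DDDA HB, DT3167, at 347 CPM. The other 7 had log2 fold changes from -0.11 (Acaa1b) to 0.27 (Hsd17b4). The interval for Acaa1b was -0.79 to 0.56, which does not reach its fold change of 0.90 in livers.

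Whether HBs and livers differed in their response to the diet was tested as an interaction, and 0% of 14502 genes were called, none of the 9 among them. Before adjustment 877 genes had a p under 0.05 with edgeR, and DESeq2 called 11. Acaa1b had an interaction of -0.99 (SE 0.44, adjusted p = 0.81) and Ehhadh of -0.87 (SE 0.42, adjusted p = 0.818, both edgeR), so a difference in response was not shown for either.

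Ehhadh differed between the sexes in livers. Female livers had 1701 and 1725 CPM on the DDDA diet, against 920, 1018 and 1070 CPM in male livers. On the standard diet females had 367, 475 and 621 CPM and males 268 and 315 CPM. On each diet the sexes did not overlap, and with diet in the fit the log2 fold change of female against male was 0.77 (SE 0.14, adjusted p = 0.00573, edgeR), past the threshold under all 14 alternatives. Of all genes, 15.2% were called between female and male livers, 1151 higher and 792 lower in females with TMM and 2700 higher and 364 lower with scaling by library size alone.

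Acox3 was lower in female livers (log2 fold change -0.40, SE 0.11, adjusted p = 0.0264, edgeR), with 41.2 and 43.7 CPM in females and 48.1 to 52.3 CPM in males on the DDDA diet, and with 30.2 to 36.6 CPM in females and 46.3 and 52.1 CPM in males on the standard diet. That call was lost without c1, c7 or c17 and with scaling by library size alone, which moved the median of all genes to 0.20. Hsd17b4 was lower in each female liver than in any male liver of the same diet, with a log2 fold change of -0.25 (adjusted p = 0.0881, edgeR), and DESeq2 called it lower (log2 fold change -0.27, adjusted p = 0.00987). The summed level of 6 macrophage markers also moved with sex in livers, with 6 of 6 called higher in females, and their part in these differences was not tested.

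In HBs 0 of the 9 were called between the sexes, and 0.0418% of 14366 genes were. By edgeR 0 of the 9 and 1367 of all genes had an unadjusted p under 0.05. DESeq2 called 0 of the 9, and over all genes 101 higher and 124 lower. The edgeR estimate for Ehhadh in HBs was -0.03 on the log2 scale (SE 0.34, 95% interval -0.69 to 0.63), an interval below the liver value of 0.77. The difference between the tissues in this respect was not tested, and 1 of 5 DDDA HBs was male.

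Per length, by the deposited RPKM, the order of the 9 differed between tissues. In standard diet HBs Ech1 (153 ± 18.8 RPKM) and Acaa1a (109 ± 9.80 RPKM) led, and Ehhadh (20.1 ± 1.60 RPKM) and Acox3 (4.21 ± 0.30 RPKM) were last (SD, n = 5). In standard diet livers Acaa1b led (317 ± 128 RPKM), Ech1 (181 ± 54.0 RPKM) and Pecr (175 ± 30.9 RPKM) were within each other's spread, and Acox3 was last (4.06 ± 0.64 RPKM, SD, n = 5). Ehhadh held the 6th place in standard diet livers (101 ± 40.8 RPKM) and the 2nd in DDDA livers (297 ± 114 RPKM), where the mean of Ech1 (213 ± 20.7 RPKM) lay within the spread of Ehhadh. Ehhadh made up 3.73% to 7.25% of the summed RPKM of the 9 in DDDA HBs, 3.31% to 3.86% in standard diet HBs, 11.7% to 25.3% in DDDA livers and 6.75% to 10.5% in standard diet livers. Acaa1b made up 5.32% to 15.1% in DDDA HBs, 9.21% to 13.8% in standard diet HBs, 28.9% to 33.1% in DDDA livers and 19.3% to 32.3% in standard diet livers.

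Within groups the transcripts did not all vary together. Over 20 libraries, as deviations of log2 CPM from the 4 group means, Acaa1a and Decr2 had the highest correlation of the 36 pairs (Pearson r 0.84), followed by Decr2 and Pecr (0.80). Ehhadh varied most like Acaa1b (0.71) and Decr2 (0.58), and was at 0.04 with Acox2 and -0.41 with Acox3. Within the 10 HBs Ehhadh was at 0.74 with Hsd17b4, and within the 10 livers at -0.65. Libraries differ in sex and depth within each group, and DDDA libraries also in flow cell. Only group means were removed, so the correlations are descriptions without a test. Of 10486 genes with at least 5 CPM on average, those most like Ehhadh were Prlr (0.88), Bche (0.84), Zcchc11 (0.84), Papss2 (0.84) and Fmo1 (0.81), and Acaa1b ranked 54th.

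Other genes of the organelle were lower in HBs as well. The share of all genes called lower was 26.8% on the standard diet and 23.4% on the DDDA diet. Of 17 genes for peroxisomal import and auxiliary steps, 14 were lower and 1 higher in standard diet HBs, and 14 and 0 in DDDA HBs. They include Slc27a2, which activates very long-chain acids (-1.94), Abcd3, a peroxisomal fatty acid transporter (-1.89), and the protease Lonp2 (-1.95). Of 16 peroxins, which build the organelle, 15 were lower on the standard diet and 14 on the DDDA diet, such as Pex5, the import receptor (-1.19), and Pex11a, which acts in peroxisome division (-2.04). Of 13 other peroxisomal genes tested, 10 were lower on each diet, such as Cat, the catalase (-2.02), and Baat (-2.05). Agps, of ether lipid synthesis, was higher (1.20) on the standard diet. With scaling by library size alone the standard diet counts were 10 lower and 2 higher of the 17, 10 lower of the 16 and 7 lower and 3 higher of the 13, and the genes named here kept their direction and call. Over all 13830 genes 1299 were then lower and 8776 higher. The values in parentheses in this paragraph are log2 fold changes on the standard diet with adjusted p under the threshold by edgeR.

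The mitochondrial counterparts were lower too, 11 of 11 on each diet, against 26.8% of all genes on the standard diet and 23.4% on the DDDA diet. Their median log2 fold change was -1.10 on the standard diet, against -1.64 for the 9 peroxisomal transcripts. With scaling by library size alone 8 of 11 were lower on the standard diet and 10 of 11 on the DDDA diet. Of all genes, 1299 of 13830 and 1152 of 13415 were then lower. Decr1 (-1.23), Hadhb (-1.14) and Acaa2 (-1.30), the mitochondrial reductase, trifunctional protein subunit and thiolase, had the smallest p. Other targets of PPARα went both ways, as all genes did. Of 14 tested, 5 were higher and 5 lower in standard diet HBs, and 3 and 5 in DDDA HBs. Over all genes, 3896 of 13830 were higher and 3703 lower on the standard diet, and 3529 of 13415 and 3144 on the DDDA diet. With scaling by library size alone the counts of the 14 were 8 higher and 5 lower on the standard diet and 4 and 5 on the DDDA diet. Those of all genes were then 8776 higher and 1299 lower, and 7966 and 1152. Fabp1, a fatty acid binding protein, was lower (-2.76), and Pdk4, a pyruvate dehydrogenase kinase (3.19), and Fgf21, a secreted hormone (3.66), were higher, each on the standard diet.

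In DDDA livers 5 of the 11 mitochondrial genes were higher and none lower, among them Hadhb (log2 fold change 0.53) and Hadha (0.46). Over all 12803 genes tested, 547 were higher and 393 lower. Of the 14 PPARα targets 4 were higher, including Fgf21 (3.46), at 1.67 to 8.50 CPM in DDDA livers and 0.25 to 0.62 CPM in standard diet livers. Of the import and auxiliary genes Slc27a2 alone was called (0.50). Pex3 (0.55) was higher and Pex11g (-0.37) lower among the peroxins, of which 2 were higher and 1 lower, and Pxmp2 (-0.57) was lower among the other peroxisomal genes. With scaling by library size alone 0 of the 11 mitochondrial genes and 1 of the 14 PPARα targets were called, and among the peroxins 1 was higher and 1 lower. Over all genes 176 were then higher and 307 lower. Slc27a2, Hadhb and Hadha were then not called (adjusted p 0.0656, 0.0972 and 0.139, edgeR), and none of these 3 changed direction. In HBs no gene of these 5 lists was called between the diets, and 42 of all 14082 genes tested were.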

How the data were processed

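mRNA was enriched on oligo(dT) beads and libraries were directional. The authors deposited raw read counts per gene, whole numbers without normalization, and the authors' RPKM values per gene, scaled for transcript length and depth, and both were used. TPM and CPM columns and the authors' comparison columns (means, fold changes, p-values) were not used. The build, from the submitters' processing notes, is GRCm38.p6. The sources used here do not say how reads matching several genes were counted. The headers mark standard diet libraries as trimmed pairs and DDDA libraries not, so this processing step also moves with diet. Of 25 samples, 20 were analysed, and 5 HBs from long DDDA feeding were not analysed here.

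The quasi-likelihood F-test of edgeR 4.0.16 was applied to the counts in R 4.3.3, after TMM scaling and filterByExpr. P-values were adjusted by Benjamini-Hochberg over all genes kept and called at 0.05. Each fit held the 2 groups compared, except the interaction (all 20 libraries) and the sex comparisons (10 libraries, diet as a term). Intervals are 95% normal intervals from the SE. Count ratios were compared by exact two-sided permutation, adjusted over 8 tests. P-values measure the spread between the 5 animals of a group. Correlations used log2(CPM + 0.5). Promoter windows came from RefSeq and transcripts from GENCODE vM21. The fitting code was tested on simulated counts. Alternatives were DESeq2 1.42.0, RLE factors, a filter keeping any gene with a count, a joint fit of all libraries, a sex term, omission of single libraries, and RPKM in place of counts for ratios. Scaling by library size alone and the omission of DL03 with DT3168, read on another flow cell, were chosen after seeing the data. Genes named besides the 9 enzymes are, per list, the 3 called with the smallest p for standard diet HBs against livers and the 2 for DDDA against standard diet livers, and the 5 most like Ehhadh. Some genes that this rule names are not reported here. The enzymes, lists and tests were chosen with earlier results of these data known. Plots used matplotlib 3.10.9, and tables pandas 2.3.3 under Python 3.11.15.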

Additional observations from a re-analysis of the deposited data

Results flagged for a closer look

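In DDDA HBs, Ech1 stood at 103 CPM in DT2264, far from the nearest of the other 4, at 154 CPM. The gap took 0.71 of the whole range of the group, just past the limit for 5 samples. Of 36 sets of 5 (9 transcripts in 4 groups), 1 was marked in this way, and chance marks about 1 in 20. DT2264 also had the lowest level among the DDDA HBs of Ehhadh, Acox2, Hsd17b4, Acaa1a, Acaa1b, Decr2 and Pecr, and the highest summed level of stellate and fibroblast markers (2948 CPM, median of the group 154 CPM) and of cholangiocyte markers (1596 CPM, median 138 CPM). The part of these markers in the low values was not tested.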

How the results depend on the processing

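With scaling by library size alone, 5 of the 9 transcripts were called between standard diet HBs and livers (Acox3 reversed to 0.075, not called), 1 between livers of the 2 diets and 1 between female and male livers. With all 20 libraries in one fit, and without DL03 and DT3168, 1 was called between livers of the diets. Leaving out each library gave 1 to 5 called between livers of the diets, 0 to 1 between HBs of the diets and 1 to 2 between female and male livers, and 9 between standard diet HBs and livers, 8 to 9 on the DDDA diet. The ratio of Acaa1b to Acaa1a between livers of the diets was 0.41 to 0.70 over the same omissions, past the threshold without c12. Over all genes, counts of calls ranged from 1 to 731 between HBs of the diets (42 in the report), from 328 to 1654 between livers of the diets (547 higher and 393 lower in the report), from 0 to 11 for the interaction (0), from 1237 to 3064 between female and male livers (1943) and from 3 to 225 between the sexes in HBs (6). The cause of these changes was not tested. No paired analysis was made, because the livers came from uninjected mice and so from other animals than the HBs.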
